A study of Danio rerio with 12 samples.

Results

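In zebrafish whole kidney marrow, 6 genes of antigen presentation by class I molecules of the major histocompatibility complex (MHC) were followed: the class I heavy chain gene mhc1uba and the general presentation genes b2m, calr, psme1, psme2 and pdia3. They were taken by gene symbol from a table of 32105 genes, so there are 6 members of 32105, and all 6 had enough counts to be tested. mhc1uba had been chosen by its CPM difference between il2rga mutants and wild type in earlier results of these data, so the members' values in that comparison, and in the other one that uses the wild type libraries against double mutants, are given here as a description with no test. Whole kidney marrow is the blood-forming tissue of the adult fish and holds blood cells of all lineages among kidney tubules. Poly(A) RNA of the dissected kidney of 1 animal made each library, and 12 libraries formed 4 groups of 3 animals. These were wild type fish, fish mutant in prkdc, fish mutant in il2rga, and double mutants that carried both mutations. The series design gives prkdc(D3612fs) and il2rga(Y91fs) as the alleles of its mutant fish, while the labels of these libraries give only the gene names and neither age, sex nor batch. DNA-PKcs, the kinase that prkdc encodes, is needed to assemble antigen receptor genes, and il2rga encodes the common gamma chain, a subunit of several interleukin receptors. The double mutants shared the prkdc mutation with the prkdc mutants and the il2rga mutation with the il2rga mutants.

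Class I molecules show peptides from inside the cell to cytotoxic T cells. Proteasomes cut proteins into peptides, the TAP transporter carries the peptides into the endoplasmic reticulum, and a loading complex places them on a heavy chain paired with beta-2 microglobulin. In mammals, interferons induce the heavy chains, the TAP transporter and the immunoproteasome subunits together. In zebrafish, class I genes of the U lineage lie beside immunoproteasome and TAP genes, and fish differ in which of these genes their haplotypes carry. No sequence is printed for these genes here, because no sequence of them was used.

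Total counts ran from 4756244 to 10311377 per library. Of the targeted genes, il2rga followed the labels and prkdc did so in part. il2rga was at 47.4 ± 12.4 CPM (counts-per-million scale with TMM library sizes; mean ± SD, n = 3) in wild type, 37.3 ± 4.3 in prkdc mutants, 4.24 ± 2.29 in il2rga mutants and 2.78 ± 1.07 in double mutants. prkdc was at 55.7 ± 6.54, 20.5 ± 3.9, 29.6 ± 6.52 and 18.6 ± 0.707 CPM in the same order. The il2rga mutants, labelled with no prkdc mutation, thus lay below wild type in prkdc (22.1 to 34.3 against 50.1 to 62.9 CPM), and il2rga mutant 3, at 22.1 CPM, lay inside the prkdc mutant range of 16.0 to 23.4 CPM. The level of prkdc therefore does not check the labels of il2rga mutants against those of double mutants. Markers of blood and of kidney tubule were present in every group, with the tubule list summing to 10720 to 16700 CPM. T cell markers summed to 78.7 to 162.5 CPM in wild type and to 7.02 to 15.8 CPM in il2rga and double mutants, where 1 and 2 of the 15 markers were at 0 counts. The B cell list had a mean log2 CPM of 3.96, 3.56 and 4.69 in wild type 1 to 3 and of 1.7, 1.42 and 1.88 in prkdc mutants. In il2rga mutants 1 to 3 that mean was 3.92, 3.0 and 4.87, wholly above the 0.868, 0.92 and 1.64 of double mutants. Markers of liver, a tissue outside the labelled one, had a mean log2 CPM over 18 genes of 0.91 to 2.39 in wild type and prkdc mutants, of 5.65, 7.01 and 1.92 in il2rga mutants 1 to 3, and of 8.32, 6.34 and 4.95 in double mutants 1 to 3. No liver marker was at 0 counts in any group, and the list summed to between 131.7 and 12530 CPM per library. A list of 37 tested long transcripts, drawn up with falls of long genes already known, had a mean log2 CPM of 6.62 to 6.82 in wild type and prkdc mutants and of 5.56 to 5.99 in il2rga and double mutants.

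The heavy chain gene mhc1uba (ENSDARG00000075963), which encodes the peptide-binding chain of a U-lineage class I molecule, took a low or a high level with nothing in between. It was at 5.61, 3.90 and 4.41 CPM in wild type 1 to 3 and at 3.09, 4.26 and 2.88 CPM in prkdc mutants 1 to 3. In il2rga mutants 1 to 3 it was at 295.4, 366.4 and 649.3 CPM. In double mutants 1 to 3 it was at 334.8, 763.4 and 2.90 CPM. Thus 5 of the 12 libraries held 295.4 to 763.4 CPM, the other 7 held 2.88 to 5.61 CPM, and 0 libraries lay between 10 and 100 CPM. Double mutant 3 sat inside the range of the prkdc mutants, apart from the other two double mutants. Its 19 counts gave a 95% Poisson interval of 1.75 to 4.53 CPM, which covers counting error only, whereas double mutants 1 and 2 had 2946 and 7633 counts.

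**Figure D1:**
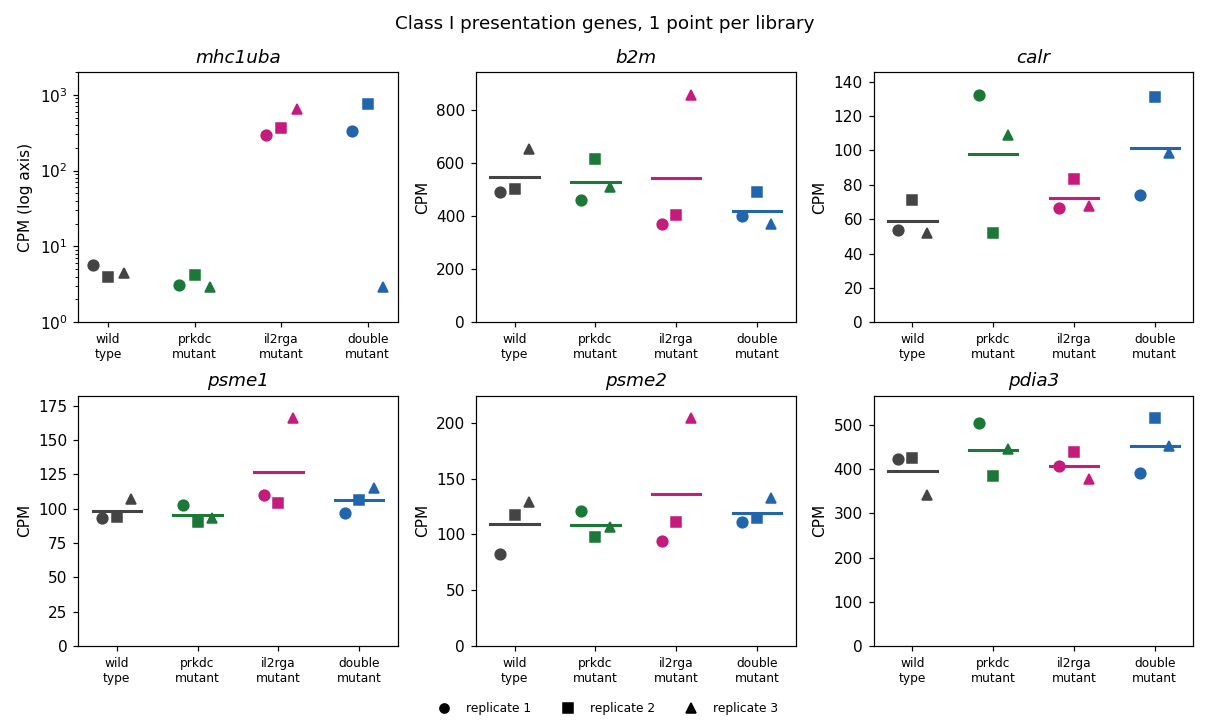
Level of each of the 6 genes in CPM (vertical axes; logarithmic for mhc1uba and from 0 for the others) in the 4 groups, with 1 point per library, a shape per replicate number and a horizontal line at the group mean except for mhc1uba. The mhc1uba points of the il2rga mutants and of double mutants 1 and 2 lie at 295.4 to 763.4 CPM and all others at 2.88 to 5.61 CPM, while il2rga mutant 3 is the highest library for b2m, psme1 and psme2.

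Double mutant 3 held il2rga at 2.29 CPM, as low as the other libraries with an il2rga mutation, and prkdc at 19.3 CPM, which checks its label less, against 2.05 and 4.0 CPM of il2rga and 17.8 and 18.7 CPM of prkdc in double mutants 1 and 2. Group means of mhc1uba were 4.64 ± 0.876 CPM in wild type, 3.41 ± 0.741 in prkdc mutants, 437.0 ± 187.2 in il2rga mutants and 367.0 ± 381.3 in double mutants (SD, n = 3). In order of level the groups ran from prkdc mutant through wild type and double mutant to il2rga mutant. No neighbours in that order were separated in every library: wild type overlapped prkdc mutants, double mutants overlapped il2rga mutants, and double mutants overlapped prkdc mutants and fell below wild type through double mutant 3. The counting of reads from near-identical class I copies is not stated, so reads of a related heavy chain may be among these counts or missing from them.

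The effect of losing il2rga where prkdc is also mutant was tested between double and prkdc mutants. Their 6 libraries are separate from those in which mhc1uba was first named, but the members were chosen with earlier results of these data known. The adjusted p of mhc1uba is therefore not that of a gene chosen without these data. The spread used by the test was estimated over all 12 libraries, so the test is not independent of the others. mhc1uba was higher in double mutants by 6.74 ± 1.42 on the log2 scale (± SE; edgeR quasi-likelihood test, adjusted p = 0.0192), in 2 of 3 animals, and the groups overlapped. Of the 18370 genes tested, 14.8% were called in this comparison and 7.93% were called higher. Without double mutant 3 the difference was 7.29 ± 0.476 (adjusted p = 0.000336). The call was lost without prkdc mutant 1, 2 or 3 or without double mutant 1, with edgeR adjusted p of 0.0581, 0.0687, 0.0786 and 0.0527, and differences of 6.64, 6.92, 6.59 and 6.81. It was also lost when only these groups were fitted (6.75, adjusted p = 0.0825) or with the liver list as a covariate (6.97 ± 2.31, adjusted p = 0.197). Without the 4 libraries with most liver transcripts, which leaves double mutant 3 as the one double mutant, the difference turned to -0.22 ± 0.35.

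Between il2rga mutants and wild type, where the gene had been named before, the fitted difference of mhc1uba was 6.55 ± 1.40 on the log2 scale and the groups did not overlap. Groups did not overlap in 30.6% of all genes tested in that comparison, and 14.6% lay wholly higher. Between double mutants and wild type the fitted difference was 6.30 ± 1.39, with double mutant 3 below all 3 wild type libraries. These comparisons share the wild type libraries.

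The prkdc mutation was not accompanied by a called difference in mhc1uba on either background. The difference was -0.44 ± 1.2 (edgeR adjusted p = 1.0) between prkdc mutants and wild type and -0.25 ± 1.09 (edgeR adjusted p = 0.948) between double and il2rga mutants. With standard errors above 1, these values leave room for differences of several fold. Without the 4 libraries with the most liver transcripts, the last comparison sets double mutant 3 alone, at 2.90 CPM, against il2rga mutant 3 alone, at 649.3 CPM, and its value of -7.79 describes those 2 animals.

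**Figure D2:**
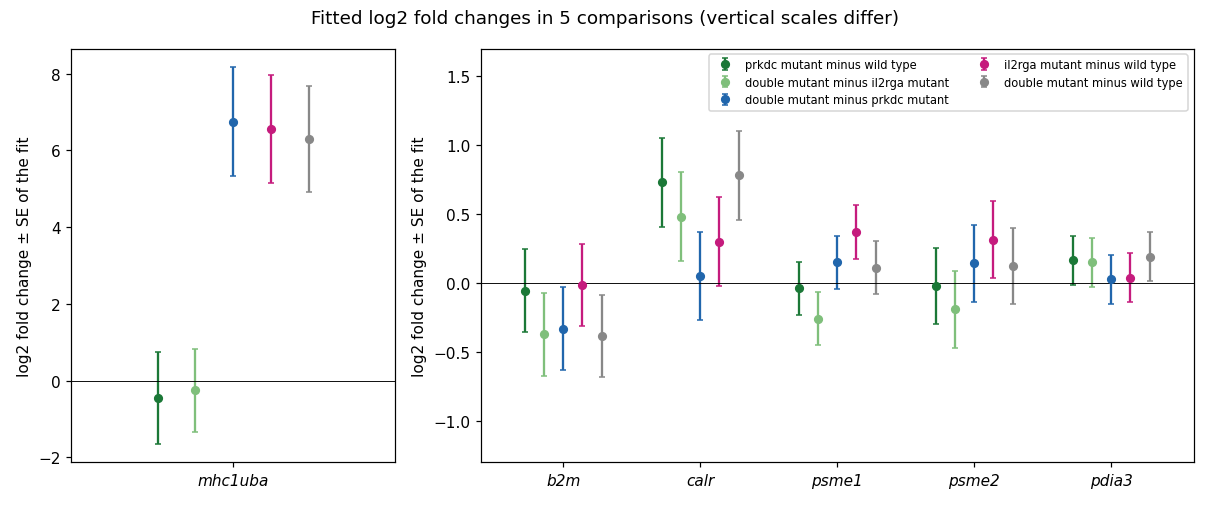
Fitted log2 fold changes (vertical axes, with different scales for mhc1uba and the other 5 genes) in 5 comparisons, with bars of 1 standard error derived from the F statistic of the test. The 3 comparisons that set an il2rga mutation against none lie at 6.30 to 6.74 for mhc1uba, while the fitted values of the other 5 genes lie between -0.38 and 0.78.

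Other measured levels moved with mhc1uba in part. The 4 libraries richest in liver transcripts all had high mhc1uba, but il2rga mutant 3 had 649.3 CPM of mhc1uba with a mean liver log2 CPM of 1.92, inside the wild type range of 1.32 to 2.39, and double mutant 3 had 2.90 CPM of mhc1uba with a liver mean of 4.95. In double against prkdc mutants, 14 of 18 liver markers were called higher and 0 lower, where 7.93% of all genes were called higher and 6.86% lower. Long transcripts were low in all 6 libraries with an il2rga mutation, double mutant 3 included (5.84). In double against prkdc mutants 19 of 37 were called lower, beside the same 6.86% of all genes. Cytotoxic T and natural killer cell markers were also low in all of these libraries, with 7 of 10 called lower in the same comparison. The list of 16 interferon-stimulated genes had a mean log2 CPM of 5.03, 3.69 and 2.39 in il2rga mutants 1 to 3 and of 3.23, 4.26 and 0.782 in double mutants 1 to 3, against 2.27, 2.81 and 4.42 in wild type 1 to 3. Its lowest library was thus double mutant 3, while il2rga mutant 3 was low for this list and high for mhc1uba, and wild type 3 the reverse. Fewer cells of a type and less RNA per cell cannot be told apart in bulk tissue, and the part of these levels in the mhc1uba values was not tested.

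The light chain gene b2m (ENSDARG00000053136) encodes beta-2 microglobulin, which every classical class I heavy chain needs to reach the cell surface. It was at 490.8, 504.1 and 655.4 CPM in wild type 1 to 3, at 461.8, 617.8 and 509.7 CPM in prkdc mutants, at 372.3, 403.8 and 859.2 CPM in il2rga mutants and at 399.7, 491.7 and 372.4 CPM in double mutants. All groups overlapped. Its highest library was il2rga mutant 3 and its lowest il2rga mutant 1, a range of 2.31-fold against 265-fold for mhc1uba. The group means were 550.1 ± 91.4, 529.8 ± 79.9, 545.1 ± 272.5 and 421.3 ± 62.5 CPM (SD, n = 3) in the same order. The fitted difference was -0.05 ± 0.30 between prkdc mutants and wild type, -0.37 ± 0.30 between double and il2rga mutants and -0.33 ± 0.30 between double and prkdc mutants (edgeR adjusted p of 1.0, 0.687 and 0.467). Against wild type the fitted values were -0.01 ± 0.30 for il2rga mutants and -0.38 ± 0.30 for double mutants. The first of these was -0.49 without il2rga mutant 3. Thus the 5 libraries with high mhc1uba included the highest b2m library and, at 372.3 CPM, the lowest. That lowest value was level within counting error with the 372.4 CPM of double mutant 3, where mhc1uba was low.

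The genes psme1 (ENSDARG00000002165) and psme2 (ENSDARG00000033144) encode the alpha and beta subunits of the PA28 proteasome activator, a ring that caps the proteasome and alters the release of peptides. psme1 was at 93.1, 93.8 and 107.3 CPM in wild type 1 to 3, at 102.9, 90.4 and 93.2 CPM in prkdc mutants, at 109.9, 104.3 and 165.7 CPM in il2rga mutants and at 96.7, 106.1 and 115.0 CPM in double mutants. psme2 was at 82.9, 117.3 and 128.8 CPM in wild type 1 to 3, at 120.6, 97.3 and 106.4 CPM in prkdc mutants, at 93.9, 111.0 and 204.0 CPM in il2rga mutants and at 111.3, 114.4 and 132.7 CPM in double mutants. For both subunits il2rga mutant 3 was the highest library, and in each comparison the groups overlapped. For psme1 the fitted differences were -0.04 ± 0.19 between prkdc mutants and wild type, -0.26 ± 0.19 between double and il2rga mutants and 0.15 ± 0.19 between double and prkdc mutants (edgeR adjusted p of 1.0, 0.664 and 0.624). For psme2 they were -0.02 ± 0.28, -0.19 ± 0.28 and 0.14 ± 0.28 in the same order (edgeR adjusted p of 1.0, 0.846 and 0.751). The difference between il2rga mutants and wild type was 0.37 ± 0.19 for psme1 and 0.31 ± 0.28 for psme2, and without il2rga mutant 3 it was 0.14 and -0.09. Against wild type, double mutants differed by 0.11 ± 0.19 in psme1 and 0.12 ± 0.28 in psme2.

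The genes calr (ENSDARG00000076290) and pdia3 (ENSDARG00000102640) encode calreticulin, a lectin chaperone, and ERp57, a thiol oxidoreductase, which act on many glycoproteins of the endoplasmic reticulum and in mammals are part of the class I loading complex. calr was at 53.5, 71.3 and 52.2 CPM in wild type 1 to 3, at 132.4, 51.8 and 109.2 CPM in prkdc mutants, at 66.2, 83.5 and 67.9 CPM in il2rga mutants and at 74.0, 131.1 and 98.7 CPM in double mutants. Double mutants lay wholly above wild type, where 34.5% of all genes tested did not overlap and 16.7% lay wholly higher, while prkdc mutant 2 was the lowest of all libraries and prkdc mutant 1 the highest. The fitted difference of calr was 0.73 ± 0.32 between prkdc mutants and wild type, 0.48 ± 0.32 between double and il2rga mutants and 0.05 ± 0.32 between double and prkdc mutants (edgeR adjusted p of 0.846, 0.619 and 0.929). Its fitted values against wild type were 0.30 ± 0.32 for il2rga mutants and 0.78 ± 0.32 for double mutants.

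pdia3 varied least of the 6 genes, 1.51-fold from the lowest to the highest library. It was at 423.8, 424.7 and 341.9 CPM in wild type 1 to 3, at 504.6, 384.3 and 444.7 CPM in prkdc mutants, at 407.2, 439.0 and 377.6 CPM in il2rga mutants and at 390.4, 515.1 and 453.0 CPM in double mutants, and all groups overlapped. Its fitted differences were 0.16 ± 0.18, 0.15 ± 0.18 and 0.03 ± 0.18 in the order used for calr (edgeR adjusted p of 1.0, 0.794 and 0.931). Against wild type they were 0.04 ± 0.18 for il2rga mutants and 0.19 ± 0.18 for double mutants.

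Of the 5 general presentation genes, 0 were therefore called in any of the 3 tested comparisons by edgeR, and 0 by DESeq2 or limma voom. The backgrounds were 0.0% of all genes called between prkdc mutants and wild type, 0.0% between double and il2rga mutants and 14.8% between double and prkdc mutants. The one unadjusted p under 0.05 among these 5 genes in the 3 comparisons was that of calr between prkdc mutants and wild type. In the first of these comparisons 1052 of 18370 genes, and in the second 1767, had an unadjusted p under 0.05, and DESeq2 called 139 and 72 genes and limma voom 26 and 0. The test of whether the prkdc effect differed with il2rga called 0 genes by edgeR, 49 by DESeq2 and 0 by limma voom, with 1123 at an unadjusted p under 0.05 in edgeR, and gave edgeR adjusted p of 0.889 to 0.994 for these 5 genes.

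Pairs of these genes moved together across libraries. calr and pdia3 had a Pearson correlation of log2 CPM of 0.869 over 12 libraries (Spearman 0.867), and 0.722 over 10 libraries without prkdc mutant 1 and double mutant 2, the farthest from the median of calr. psme1 and psme2 had a correlation of 0.854 (Spearman 0.643), and 0.46 over 10 libraries without il2rga mutant 3 and prkdc mutant 2, so that much of it rested on those libraries. b2m had 0.451 with psme1 and 0.553 with psme2, and -0.779 and -0.297 without il2rga mutant 3 and wild type 3. mhc1uba had -0.04 with b2m. The ratio of psme1 to psme2 CPM ran from 0.8 in wild type 2 to 1.17 in il2rga mutant 1. These are descriptions over libraries that share their depth and cell makeup between genes.

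**Figure D3:**
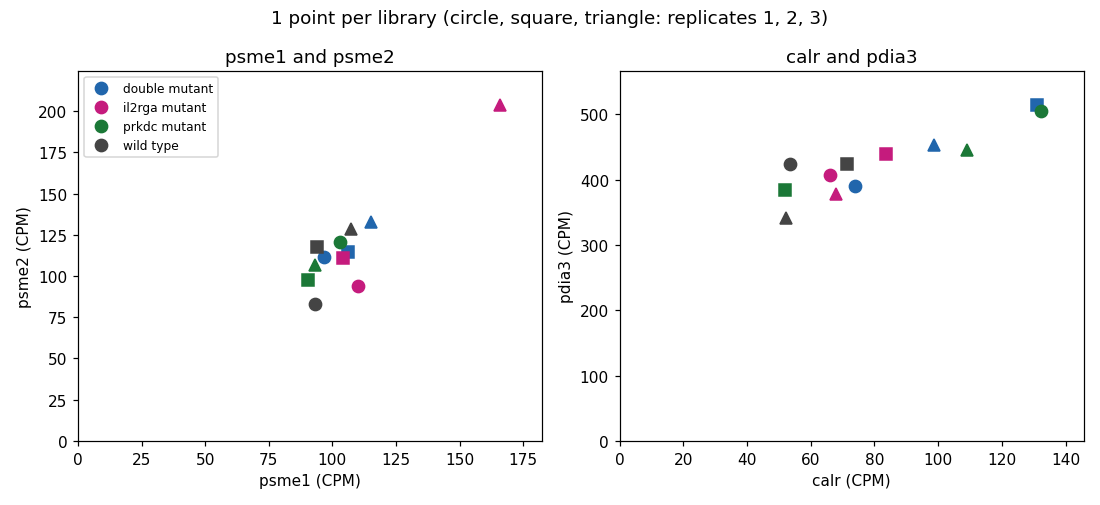
Level of psme2 against psme1 (left) and of pdia3 against calr (right) in CPM, with 1 point per library, a colour per group and a shape per replicate number. In the left panel il2rga mutant 3 stands alone at 165.7 and 204.0 CPM, and in the right panel prkdc mutant 1 and double mutant 2 are the highest for both genes.

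il2rga mutant 3, the highest library for 3 of the 6 genes, was also the highest for 20 of 85 other class I pathway genes (23.5%) and for 9.03% of all genes tested. This library had the highest neutrophil mean of all, 10.2 log2 CPM over 6 markers against 8.25 to 9.54 in the other 11, and the highest macrophage mean, 5.96 over 16 markers against 4.67 to 5.39. It was also the highest for B cell markers, at 4.87 over 9 tested genes, with wild type 3 next at 4.69, and the list summed to 814.6 and 369.1 CPM in those libraries and to 32.6 to 246.7 CPM in the other 10. Its total was 5112787 counts. The part of its cell makeup in these levels was not tested.

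The genes whose levels were most like mhc1uba over the 12 libraries were sought among the 14746 tested genes that averaged 1 CPM or more. They were btr20 (Pearson r = 0.982), cc2d1b (0.969), junb (0.959), il11a (0.958) and ppt1 (0.951). All 5 were low in double mutant 3, which their choice by likeness to mhc1uba favoured. btr20, of a zebrafish tripartite-motif family, was at 0.492, 0.244 and 0.861 CPM in wild type 1 to 3, at 0.458, 0.546 and 0.12 CPM in prkdc mutants, at 6.09, 5.66 and 6.81 CPM in il2rga mutants and at 6.36, 11.2 and 0.306 CPM in double mutants. junb, a subunit of the AP-1 transcription factor, was at 19.3, 18.2 and 16.5 CPM in wild type, at 16.7, 23.0 and 23.0 CPM in prkdc mutants, at 88.5, 59.5 and 63.4 CPM in il2rga mutants and at 54.2, 67.5 and 20.5 CPM in double mutants. ppt1, a lysosomal thioesterase, ran from 60.1 to 84.4 CPM in wild type and prkdc mutants, from 103.2 to 117.3 CPM in il2rga mutants, and was at 113.4, 117.1 and 69.7 CPM in double mutants 1 to 3. In all, 545 of 18369 other tested genes (2.97%) had the same 5 libraries as their highest, so mhc1uba shared its division of the libraries with many genes. Among the 5 other members, 0 did so.

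The genes most like b2m were relb (0.939), pygm (0.873), ftr78 (0.859), htatip2 (0.854) and znf1059 (0.851). relb, a subunit of the NF-kappa-B transcription factor, was at 61.9, 59.9 and 72.3 CPM in wild type 1 to 3, at 52.2, 61.3 and 54.1 CPM in prkdc mutants, at 46.0, 51.2 and 83.2 CPM in il2rga mutants and at 51.5, 64.0 and 47.8 CPM in double mutants. As for b2m, il2rga mutant 3 was its highest library and wild type 3 the next, which its choice by likeness to b2m favoured.

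The genes beside mhc1uba were taken from the RefSeq gene order of the GRCz12tu assembly, which is not the GRCz10 build of the counts, so no coordinates are given. Of 24 protein-coding places, 12 on each side, 21 were matched to the table and 20 had enough counts to be tested. tapbp.1, a copy of the gene for tapasin, which bridges TAP and the heavy chain, lay 3 places away. It was at 3.34, 5.60 and 7.10 CPM in wild type 1 to 3, at 5.15, 5.56 and 3.72 CPM in prkdc mutants, at 20.2, 14.4 and 27.9 CPM in il2rga mutants and at 14.8, 25.6 and 5.04 CPM in double mutants. Its 5 highest libraries were thus those of mhc1uba, which held for 1 of 20 neighbours tested (5.0%), for 1 of 85 pathway genes (1.18%) and for 2.97% of all genes, so these shares do not set the neighbours or the pathway apart. It rose by 1.95 ± 0.52 on the log2 scale in il2rga mutants against wild type (edgeR adjusted p = 0.0494) and differed by 1.66 ± 0.51 between double and prkdc mutants (edgeR adjusted p = 0.051). The second tapasin copy, tapbp.2, between tapbp.1 and mhc1uba, ran from 7.67 to 20.4 CPM with overlap of all groups.

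On the other side of mhc1uba, the proteasome subunit genes psmb13a, psmb8, psmb12 and psmb9 and the transporter gene tap2a lay in a row, where RefSeq names psmb8 and psmb9 as psmb8a and psmb9a. They divided the libraries differently from mhc1uba. psmb8, the gene of a catalytic subunit of the immunoproteasome, was at 47.4, 22.1 and 0.108 CPM in wild type 1 to 3 and at 0 counts in all 3 prkdc mutants. It was at 42.9, 63.7 and 141.5 CPM in il2rga mutants 1 to 3 and at 59.3, 78.4 and 19.4 CPM in double mutants 1 to 3. Wild type 1 and 2 and double mutant 3 were thus high for psmb8 and low for mhc1uba. tap2a, a subunit gene of the peptide transporter, was at 24.4, 13.03 and 0.431 CPM in wild type, at 0, 0.327 and 0.24 CPM in prkdc mutants, at 7.35, 18.6 and 46.6 CPM in il2rga mutants and at 11.7, 16.8 and 5.19 CPM in double mutants.

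psmb12 and psmb13a were at 0 counts in wild type 3 and in all prkdc mutants, and psmb9 was at 0.229 to 0.538 CPM in those 4 libraries. In the other 8 libraries the 3 genes ranged from 12.5 to 65.9 CPM. The heavy chain gene mhc1uca (ENSDARG00000092731) was not detected in the same 4 libraries, at 0 counts in each, which allows up to 3 counts per library, and was at 44.1 and 16.7 CPM in wild type 1 and 2, at 16.2, 25.9 and 34.5 CPM in il2rga mutants and at 19.6, 35.7 and 2.44 CPM in double mutants. Whether the animals differed in the haplotype they carried in this region was not tested.

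**Figure D4:**
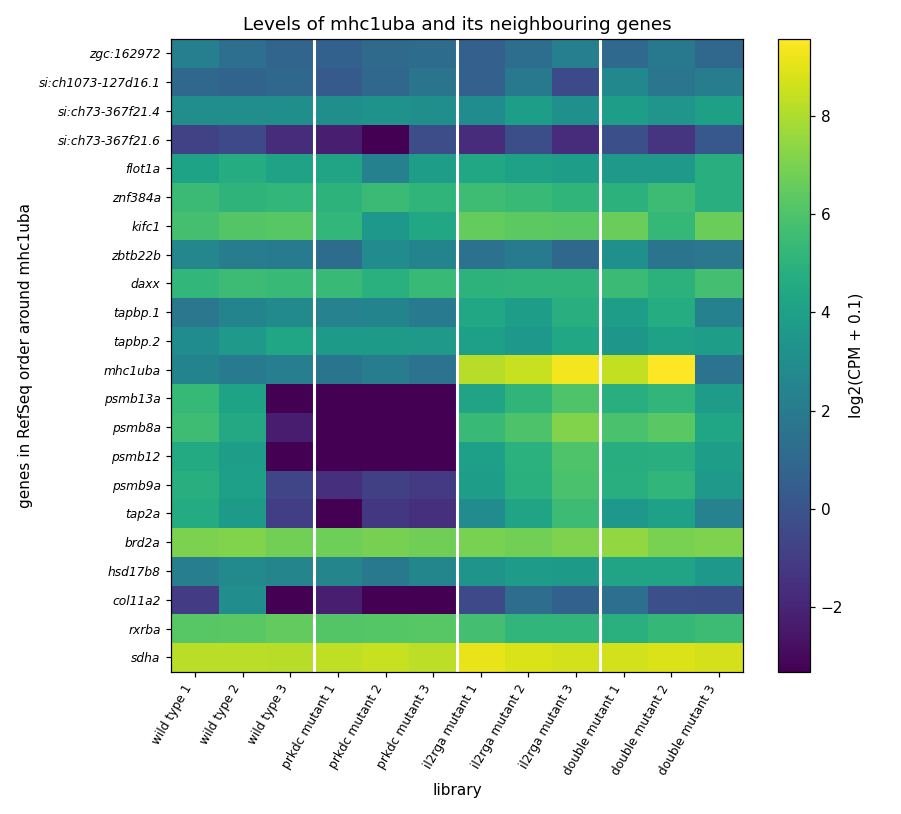
Levels of mhc1uba and of the 21 matched genes around it as a colour scale of log2(CPM + 0.1), with genes in RefSeq order in rows and the 12 libraries in columns. mhc1uba and, less far, tapbp.1 are high in the il2rga mutants and double mutants 1 and 2, while the run from psmb13a to tap2a is low in wild type 3 and the 3 prkdc mutants and present in the other 8 libraries.

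Among the 20 neighbours tested, 7 were called higher and 1 lower in double against prkdc mutants, where 14.8% of all genes were called. The 5 genes of the run from psmb13a to tap2a were all among those higher, and they moved together, so their calls are not separate events. The others were kifc1, the gene of a minus-end kinesin, and hsd17b8, of an enzyme of steroid and fatty acid metabolism. rxrb, of a retinoid X receptor, was the one lower. In il2rga mutants against wild type 2 neighbours were called higher, tapbp.1 and sdha, and 1 lower, rxrb, where 5.8% of all genes were called and 2.22% were called higher. In double mutants against wild type hsd17b8 and sdha were called higher and rxrb lower, where 14.3% of all genes were called. The neighbourhood was looked at with the values of mhc1uba and tapbp.1 known.

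The rest of the pathway was read from 6 lists of 128 gene symbols, the 6 members left out, of which 97 matched the table and 85 had enough counts to be tested. In double against prkdc mutants 11 were called higher and 6 lower, 20.0% of the 85 against 14.8% of all genes, of which 7.93% were higher and 6.86% lower. The 11 included psmb8, psmb9, psmb12, psmb13a, tap2a and mhc1uca, all at or near 0 in the prkdc mutants and wild type 3. These genes moved as a block, so their calls are not separate events and the share of 20.0% counts that block several times. In il2rga mutants against wild type 2 were called higher and 5 lower, 8.24% against 5.8% of all genes, of which 2.22% were higher and 3.59% lower. In double mutants against wild type 8 were called higher and 5 lower, 15.3% against 14.3% of all genes, of which 6.8% were higher and 7.51% lower. The share of pathway genes called was thus close to that of all genes in the last comparison, and the median log2 fold change of the 85 was 0.14, 0.20 and 0.26 in these comparisons against 0.03, 0.06 and 0.05 over all genes. These counts rested on few animals: the 17 called in double against prkdc mutants became 7, 4 and 1 without prkdc mutant 1, 2 or 3 and 1 without double mutant 1, the 13 in double mutants against wild type became 3, 1 and 2 without wild type 1, wild type 3 or double mutant 1, and the 7 in il2rga mutants against wild type became 1 to 3 without any 1 library of those groups and 4 without prkdc mutant 1 or 3. With the liver list as a covariate, or without the 4 libraries richest in it, edgeR called 0 of the 85 in each of the 3 comparisons. Almost no gene was called under these settings: 0, 21 and 0 of 18370 genes with the covariate and 0, 22 and 0 of 19030 without the libraries, in double against prkdc mutants, il2rga mutants against wild type and double mutants against wild type. Between prkdc mutants and wild type, and between double and il2rga mutants, edgeR called 0 of the 85. In edgeR 16 and 10 of the 85 had an unadjusted p under 0.05, beside 1052 and 1767 of all 18370 genes. DESeq2 called 7 and 1 of the 85, beside 139 and 72 of all genes. The calls of limma voom were 0 and 0, beside 26 and 0 of all genes. The last of these comparisons, with the replicate number as a block, also gave 0.

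**Figure D5:**
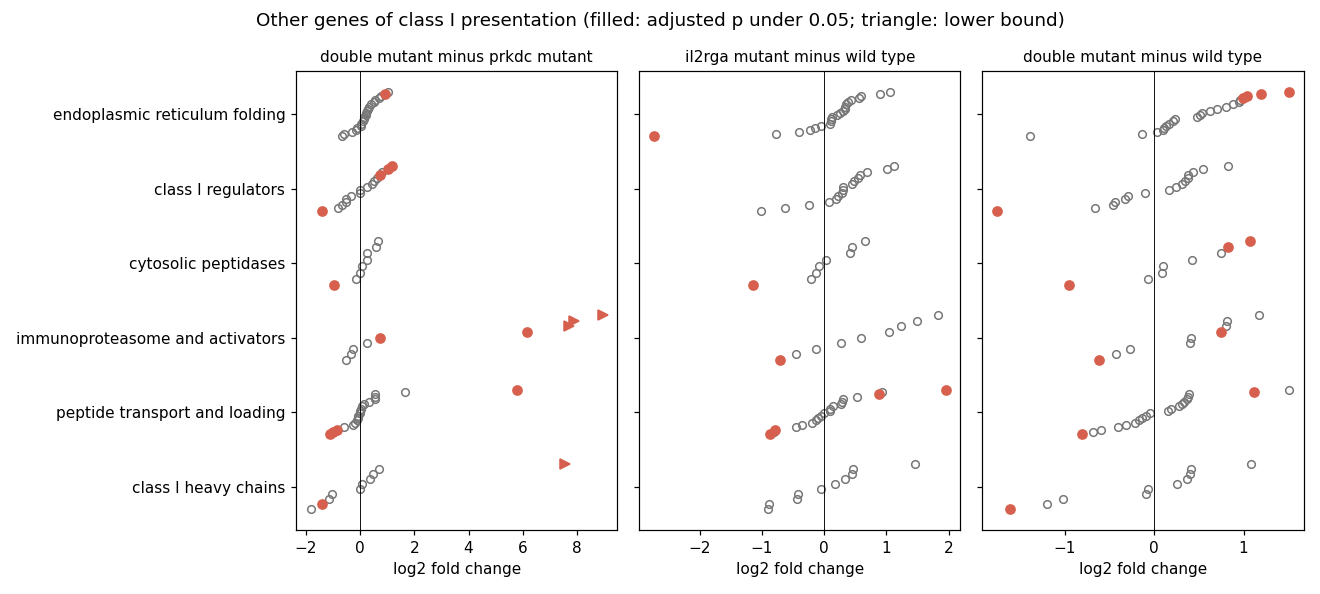
Log2 fold change (horizontal axes, which differ in scale) of 85 other class I pathway genes in 6 lists, for 3 comparisons, with filled points for an adjusted p under 0.05 and triangles at the lower bound for 4 genes with 0 counts in the prkdc mutants. That bound allows for counting error only. The left panel holds 11 genes called higher and 6 called lower, with the immunoproteasome genes farthest to the right.

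Of the 10 class I heavy chain genes tested, 1 was called higher and 1 lower in double against prkdc mutants. In double mutants against wild type 0 were called higher and 1 lower. Over all genes 14.8% and 14.3% were called in these comparisons, so these counts do not set the heavy chain genes apart. mhc1uca was 188-fold higher in double than in prkdc mutants, taking 3 counts over the prkdc group as the floor (edgeR adjusted p = 0.0467). That fold allows for counting error in the prkdc group only, not for the spread between animals. mhc1zaa, a heavy chain gene of the Z lineage, was at 38.6, 21.9 and 50.2 CPM in wild type 1 to 3, at 15.8, 43.9 and 37.9 CPM in prkdc mutants, at 25.2, 14.2 and 19.8 CPM in il2rga mutants and at 10.5, 16.3 and 9.47 CPM in double mutants. It fell by 1.42 ± 0.42 against prkdc mutants and by 1.61 ± 0.42 against wild type on the log2 scale in double mutants (edgeR adjusted p of 0.0454 and 0.032). Its direction in these group comparisons was thus opposite to that of mhc1uba, while double mutants 1 to 3 had the same order of level for both genes.

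In the immunoproteasome and activator list, 5 of 9 genes tested were called higher and 0 lower in double against prkdc mutants (55.6%, against 14.8% of all genes). psmb8, psmb12 and psmb13a were 495-fold, 207-fold and 238-fold higher against the same floor, with edgeR adjusted p of 0.025, 0.0284 and 0.0319. These folds allow for counting error only. Approximate lower limits of the fitted log2 differences, which take in the spread between animals, were 6.81, 5.86 and 5.74. These limits used a normal quantile, so limits that allow for the few animals would lie lower. With 0 counts in the prkdc mutants, the fitted values also depend on the small count that the fit adds. psmb9 was 6.15 ± 1.25 higher on the log2 scale (edgeR adjusted p = 0.0164). The libraries of the prkdc mutants were at or near 0 for these 4 genes, and so was wild type 3. The 4 genes lie in a row and moved together, so their calls are not separate events. edgeR called 0 of the 4 in the comparisons with wild type, with adjusted p of 0.354 to 0.497 (unadjusted 0.00129 to 0.00376) for prkdc mutants and no unadjusted p under 0.05 for il2rga or double mutants. pomp, the gene of a proteasome assembly factor, rose from 51.5 to 60.6 CPM in prkdc mutants to 77.1 to 114.4 CPM in double mutants (0.71 ± 0.21, edgeR adjusted p = 0.0445). psme4 (ENSDARG00000018742) encodes another proteasome activator. Against wild type it fell by 0.71 ± 0.17 in il2rga mutants and by 0.61 ± 0.17 in double mutants (edgeR adjusted p of 0.0364 and 0.0382). A second psme4 entry (ENSDARG00000087911), at group means of 7.8 to 9.97 CPM, was not called.

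Of the 20 genes of peptide transport and loading, 1 was called higher and 3 lower in double against prkdc mutants (20.0%, against 14.8% of all genes). In il2rga mutants against wild type 2 were called higher and 2 lower (20.0%, against 5.8% of all genes). tap2a rose by 5.78 ± 1.44 on the log2 scale in double against prkdc mutants (edgeR adjusted p = 0.0288). canx, the membrane-bound relative of calreticulin, fell from 1115 to 1938 CPM in prkdc mutants to 509.4 to 827.1 CPM in double mutants (-1.11 ± 0.25, edgeR adjusted p = 0.0218). b2ml, a second beta-2 microglobulin-like gene, fell from 871.9 to 1393 CPM to 495.7 to 666.4 CPM (-1.0 ± 0.27, edgeR adjusted p = 0.0356), whereas b2m itself was not called. Wild type held canx at 795.5 to 1094 CPM, below all prkdc mutants, and b2ml at 846.0 to 959.3 CPM. Neither canx nor b2ml was called in il2rga or double mutants against wild type. lnpep, an aminopeptidase that trims peptides in endosomes in mammals, was at 83.9 to 94.6 CPM in the 6 libraries with intact il2rga and at 43.2 to 59.3 CPM in the 6 without. It fell by 0.87 ± 0.17, 0.79 ± 0.17 and 0.81 ± 0.17 in double against prkdc mutants, in il2rga mutants against wild type and in double mutants against wild type (edgeR adjusted p of 0.0144, 0.0257 and 0.0162).

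calr3a, a paralogue of calr, was at 143.9, 219.1 and 175.2 CPM in wild type 1 to 3, at 317.2, 205.1 and 269.7 CPM in prkdc mutants, at 278.8, 380.6 and 334.8 CPM in il2rga mutants and at 356.3, 468.1 and 346.9 CPM in double mutants. It rose by 0.89 ± 0.23 in il2rga mutants and by 1.12 ± 0.23 in double mutants against wild type (edgeR adjusted p of 0.0474 and 0.0147). uggt1, which senses misfolded glycoproteins for another round of the calnexin and calreticulin cycle, fell by 0.87 ± 0.21 in il2rga mutants against wild type (edgeR adjusted p = 0.0377). Its difference was -0.14 ± 0.21 in double mutants against wild type (edgeR adjusted p = 0.681).

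Of 22 genes of endoplasmic reticulum folding tested, 4 were called higher and 0 lower in double mutants against wild type (18.2%, against 14.3% of all genes). In double against prkdc mutants 1 was called higher (4.55%, against 14.8%), and in il2rga mutants against wild type 1 was called lower (4.55%, against 5.8%). pdia4 and pdia6, relatives of pdia3, rose by 1.5 ± 0.35 and 1.19 ± 0.27 in double mutants against wild type (edgeR adjusted p of 0.0232 and 0.0205). The chaperone genes hsp90b1 and hspa5 rose by 1.04 ± 0.27 and 0.99 ± 0.29 there (edgeR adjusted p of 0.0313 and 0.0447). The median of the 22 genes was 0.53 in that comparison against 0.05 over all genes, beside fitted values of 0.78 for calr and 0.19 for pdia3. pdia6 was also higher in double than in prkdc mutants (0.90 ± 0.27, edgeR adjusted p = 0.0462). pdia2, a pancreatic family member in mammals, fell by 2.74 ± 0.57 in il2rga mutants against wild type (edgeR adjusted p = 0.0239). It was at 183.3, 163.6 and 48.5 CPM in wild type 1 to 3 and at 32.4, 13.7 and 13.4 CPM in il2rga mutants. In prkdc mutants it was at 40.5, 16.9 and 35.3 CPM, and in double mutants at 41.8, 35.9 and 74.1 CPM. The 4 libraries highest in transcripts of liver, another secretory tissue, were il2rga mutants 1 and 2 and double mutants 1 and 2. The folding list had a mean log2 CPM of 6.72, 6.94 and 6.83 in double mutants 1 to 3. It was at 6.26, 6.54 and 6.57 in il2rga mutants 1 to 3 and at 6.24, 6.65 and 6.21 in wild type 1 to 3. In prkdc mutants 1 to 3 it was at 6.75, 6.27 and 6.75, beside liver means of 1.21, 1.63 and 0.91. The part of liver transcripts in the rise of the folding genes was not tested.

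Of the 8 cytosolic peptidase genes, tpp2, which encodes tripeptidyl peptidase II and trims long peptides, was the only one called in all 3 of these comparisons. It was at 67.1 to 77.6 CPM in wild type and prkdc mutants and at 29.1 to 42.5 CPM in il2rga and double mutants. It fell by 1.14 ± 0.16 in il2rga mutants against wild type, by 0.96 ± 0.16 in double against prkdc mutants and by 0.95 ± 0.16 in double mutants against wild type (edgeR adjusted p of 0.00584, 0.00801 and 0.00652). thop1 and nrdc (ENSDARG00000062372), of metallopeptidases, rose by 1.07 ± 0.28 and 0.83 ± 0.24 in double mutants against wild type (edgeR adjusted p of 0.0326 and 0.0416). A second nrdc entry (ENSDARG00000019596), at group means of 70.0 to 96.2 CPM, was not called. The list of long transcripts, drawn up with falls of long genes already known, fell in the same libraries as lnpep, tpp2 and psme4. Against wild type, 25 of 37 were called lower in il2rga mutants and 27 of 37 in double mutants. Over all genes 3.59% and 7.51% were called lower there. The part of the long transcripts in the falls of lnpep, tpp2 and psme4 was not tested.

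Of 16 regulator genes of class I expression tested, 3 were called higher and 1 lower in double against prkdc mutants. Over all genes 14.8% were called in that comparison, 7.93% higher and 6.86% lower. nlrc5, which encodes the class I transactivator in mammals, was at 30.3, 35.4 and 49.8 CPM in wild type 1 to 3, at 28.4, 31.3 and 30.6 CPM in prkdc mutants, at 14.9, 13.5 and 28.7 CPM in il2rga mutants and at 6.82, 14.1 and 13.3 CPM in double mutants. It fell by 1.40 ± 0.35 against prkdc mutants and by 1.76 ± 0.35 against wild type in double mutants (edgeR adjusted p of 0.0269 and 0.0135), and its value between il2rga mutants and wild type was -1.02 ± 0.35 (edgeR adjusted p = 0.101). Its highest library with an il2rga mutation was il2rga mutant 3. In double mutants against wild type, 7 of 9 B cell markers, 11 of 14 T cell markers and 7 of 10 cytotoxic T and natural killer cell markers were also called lower. Of all genes 7.51% were called lower there. Against prkdc mutants, where 6.86% of all genes were called lower, the counts were 0, 4 and 7. The part of these cells in the values of nlrc5 was not tested. The genes nfybb and nfya (ENSDARG00000001621) encode parts of the NF-Y complex, which binds the CCAAT box. They rose by 1.17 ± 0.26 and 1.03 ± 0.26 in double against prkdc mutants (edgeR adjusted p of 0.0192 and 0.0274). This nfya entry was at 12.55 to 20.75 CPM in wild type, 7.669 to 12.87 in prkdc mutants and 18.02 to 20.9 in double mutants. nfybb was at 12.68 to 16.68, 7.435 to 14.19 and 23.22 to 29.32 CPM in the same order. A second nfya entry (ENSDARG00000042004), at group means of 27.1 to 37.0 CPM, was not called. irf9, of the interferon-activated ISGF3 complex, rose by 0.74 ± 0.22 in double against prkdc mutants (edgeR adjusted p = 0.0468). No gene of this list was called higher in il2rga or double mutants against wild type.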

How the data were processed

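The table deposited by the authors holds raw counts per Ensembl gene in 12 libraries, 1 per animal. Per the submitters' processing notes, STAR, Picard and featureCounts were used with GRCz10. The versions of these tools, the annotation and the settings for strand and multi-mapping were not given in the sources used here, although per the labels' protocols the library kit was directional. Symbols matched 26269 of 32105 identifiers, and list symbols were matched exactly or without a paralogue letter.

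Genes passing filterByExpr (18370) were scaled by TMM and fitted with edgeR 4.0.16 in R 4.3.3 (glmQLFit, robust; all 12 libraries, 4 group means). The tests were 2-sided, with Benjamini-Hochberg adjustment over all genes in a comparison and calls at 0.05. Standard errors are the absolute log2 fold change divided by the square root of the F statistic of the quasi-likelihood test. CPM used TMM library sizes, and log2 CPM a prior count of 2. The common biological coefficient of variation was 0.418. Intervals of counts are 95% Poisson intervals.

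The members and gene lists were chosen with earlier results of these data known. Genes named are the 6 members, up to 4 called genes per list by smallest adjusted p, and the 5 genes most like mhc1uba or b2m. The other called list genes (b2ml, uggt1, tapbp.1, psme4, pomp, hspa5), the neighbours and the long-transcript list were added after values were seen. A planned search of promoters for motifs was not run. Replicate counts of a group differed by a chi-square per degree of freedom of 19.1 to 79.7, so no library was a duplicate.

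Same-numbered libraries correlated above 0.1 after removal of group means in 6 of 18 pairs, among them all 3 pairs of il2rga with double mutants. The main fit held no pairing for any comparison. The replicate number was a block only in an alternative fit, which covered all comparisons. Alternatives were DESeq2 1.42.0, limma voom 3.58.1, other scaling and filters, the groups compared alone, a replicate block, a liver covariate and leaving libraries out.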

Additional observations from a re-analysis of the deposited data

How the results depend on the processing

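The count of members called in double against prkdc mutants, 1 in the report, was 0 with only the groups compared, with the liver covariate and without the 4 libraries with most liver RNA, and 0 to 1 when libraries were left out in turn. Without those 4 libraries mhc1uba gave -0.22 in double against prkdc mutants (adjusted p = 0.706) and -0.67 against wild type, since double mutant 3 is then the only double mutant left. The setting also called 1 member in double against il2rga mutants, where the report has 0, but both arms then hold 1 animal, so it is no test of the groups. The mhc1uba difference in double against prkdc mutants otherwise ran from 5.63 to 7.29.

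Pathway genes called were 17 in double against prkdc mutants, and 9 with no filter, 5 with only the groups compared, 9 with the replicate block and 0 with the liver covariate or without the 4 libraries. In il2rga mutants against wild type the 7 became 4, 3, 3, 0 and 0 in that order, 11 by DESeq2 and 13 by limma voom. In double mutants against wild type the 13 became 6 with only the groups compared, 7 with the replicate block, 20 by DESeq2 and 0 with the liver covariate or without the 4 libraries. DESeq2 called 7 in prkdc mutants against wild type and 1 in double against il2rga mutants, where edgeR called 0. Of all 18370 genes DESeq2 called 139 and 72 there. Leaving out 1 library gave 1 to 16 in double against prkdc mutants (1 without prkdc mutant 3 or double mutant 1), 1 to 8 in il2rga mutants against wild type (1 without wild type 1 or 2) and 1 to 13 in double mutants against wild type (1 without wild type 3), and 0 in the others. The replicate number as a block changed no call of a member. The causes were not tested, beyond the smaller number of animals where libraries were left out. In its 7 low libraries mhc1uba rests on 19 to 57 counts, so that differences among them are limited by counting error.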
